A study of Homo sapiens with 9 samples.

Results

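The genes described here are 32 established transcriptional targets of the tumor suppressor p53, taken by their GENCODE release 44 symbols from the 62700 genes measured. They were grouped by textbook role into 6 arrest genes, 4 feedback genes that act back on p53 or on protein turnover, 5 repair genes, 11 death and survival genes and 6 metabolic genes. RNA was sequenced from HAL-01, a B cell acute lymphoblastic leukemia line with the t(17;19) translocation, which makes the fusion transcription factor TCF3::HLF. The study asked what follows in these cells when the HLF motif of a TCF3::HLF-bound enhancer of MEF2C is disrupted. All 9 libraries, controls included, came from cells that stably carried Cas9 and GFP, and all were collected on day 13. The labels give the class MEF2C enhancer KO to the 3 libraries with the guide sgRNA_96 and to the 3 with sgRNA_97, and the 3 libraries with the guide SCR1 are the controls. Replicates were numbered 1, 3 and 4 in each group, and no label says whether they were separate cultures, so p-values measure the spread between these libraries, which may be technical. The share of edited cells was not analysed here, the cells were a bulk population of 1 line, and in bulk RNA fewer cells of a kind cannot be told apart from less RNA per cell.

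p53 is a transcription factor that is kept low by the ubiquitin ligase MDM2 and is released when DNA is damaged or ribosomes or oncogenes signal stress. It binds paired half-sites in DNA and switches on genes for cell cycle arrest, DNA repair, apoptosis and metabolism, together with its own inhibitors. Through the arrest gene CDKN1A, which encodes p21, it also lowers cell cycle genes that carry binding sites of the DREAM repressor complex. In B cell precursors this program limits growth after the DNA breaks of antigen receptor rearrangement.

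Sequences that look like the p53 response element stood close to annotated starts of 4 members. They are shown because p53 reaches its targets through such elements. RefSeq promoter windows on GRCh38, each reaching from 250 bases before to 50 bases after an annotated start, were found for 23 of the 32 genes, with 40 windows in all. The search was for the p53 response element, 20 bases without a spacer, with at most 2 mismatches and on both strands. The capitals mark the 4 central bases of each half-site, and all 4 sequences are read from the plus strand.
MDM2, chr12:68808923-68808942, 2 mismatches: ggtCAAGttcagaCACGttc
DDB2, chr11:47214969-47214988, 1 mismatch: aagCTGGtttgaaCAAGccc
FAS, chr10:88991309-88991328, 2 mismatches: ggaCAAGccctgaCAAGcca
AEN, chr15:88621306-88621325, 2 mismatches: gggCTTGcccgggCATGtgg
The MDM2 sequence fell in 2 overlapping windows, so 5 of 40 windows of the members (12.5%) held a match, against 228 of 35116 RefSeq promoter windows (0.649%). With at most 1 mismatch the counts were 1 of 40 and 33 of 35116. The members were taken because they are established p53 targets, so these shares are only a description. Of these 4 genes, MDM2 was higher and AEN lower after the enhancer guides, and DDB2 and FAS were not called, as given below. Windows of the same length around the members' main transcript starts held a match in 3 of 37, those of AEN, DDB2 and FAS. The window at the main start of MDM2, which held 89.68% of its counts, had no match within 2 mismatches. A match describes letters only, and elements farther away were not searched.

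The libraries held 15212462 to 29777361 estimated counts, and the deepest was SCR1 replicate 1. MEF2C, the gene of the targeted enhancer, had a log2 fold change of -0.12 (SE 0.04) in the KO libraries, with an adjusted p of 0.062 in the quasi-likelihood test of edgeR. Over 19 alternative fits its log2 fold change stayed between -0.18 and -0.106, and MEF2C was called in 5 of them. The paper, which used DESeq2, reports MEF2C as down-regulated after the enhancer KO. It also reports lower MEF2C in HAL-01 by RT-qPCR and, for the protein, by Western blot. All 8 B cell leukemia markers checked were expressed, summing to 4244 to 4459 CPM in SCR1 (counts over a library size scaled for composition, CPM) and 4552 to 4793 CPM in the KO libraries. T cell and erythroid markers were at 0 apart from a trace of CD2, the 3 stromal markers summed to at most 0.535 CPM, and the 4 myeloid markers summed to 18.7 to 21.5 CPM in SCR1 and 19.4 to 23.98 CPM in the KO libraries. Marker lists did not move as units. DNTT, a B cell precursor marker, rose from 2072 to 2473 CPM (edgeR adjusted p = 0.000328), while IGLL1 had 923 and 813 CPM and CD79A 187 and 175 CPM without being called. Of the myeloid markers MPO rose from 2.75 to 5.82 CPM (edgeR adjusted p = 0.000894), CSF1R had 17.2 and 14.8 CPM without being called, and LYZ and CD14 stayed below 1 CPM on average. The part of these markers in the results below was not tested.

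Most p53 target genes were expressed in the SCR1 controls. Levels between genes are compared in TPM, a relative abundance scaled for transcript length and library size. In SCR1 the highest were MDM2 at 296 TPM ± 15.8 (SD, n = 3), CDKN1A at 225 TPM ± 8.14 and RPS27L at 219.8 TPM ± 6.44, and the last pair differed by less than their SDs. CCNG1 followed at 158 TPM ± 5.11. CCNG1, the lowest of these 4 genes, stood above 94.95% of the 14436 genes tested. DDB2 at 71.6 TPM and TRIAP1 at 55.6 TPM came next, and the remaining members with enough counts for a test lay between 4.56 TPM (PLK2) and 39.0 TPM (AEN).

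**Figure D1:**
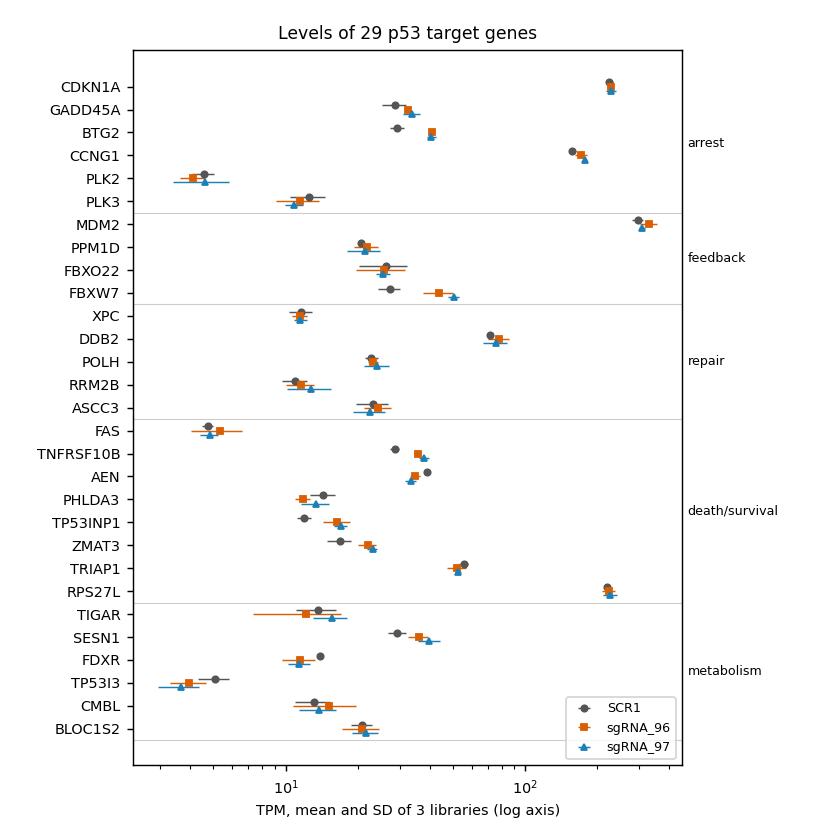
Mean level in TPM, on a log axis, of the 29 p53 target genes with enough counts for a test, with the SD of the 3 libraries of SCR1, sgRNA_96 and sgRNA_97 and with the genes grouped by role. MDM2, CDKN1A, RPS27L and CCNG1 sit apart at the right, and FBXW7 shows the widest gap between SCR1 and the enhancer guides.

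Not expressed, or too low to test, were 3 members, all of the death and survival group. TNFRSF10C, a decoy receptor of the death ligand TRAIL, and SPATA18, a mitochondrial quality control gene, had 0 counts in each of the 9 libraries. Other annotated genes overlap TNFRSF10C on the same strand, and Salmon could have assigned reads of the locus to them. A count of 0 allows up to 3 counts, which is 0.101 CPM in the deepest and 0.197 CPM in the shallowest library, counting error only. EDA2R, a receptor of the tumor necrosis factor family, had 0 to 7 counts per library, 31 counts in all, and at most 0.331 CPM.

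In the KO libraries 10 of the 29 tested members changed, 9 of them upward and 1 downward. The risers were BTG2, CCNG1, MDM2, FBXW7, RRM2B, TNFRSF10B, TP53INP1, ZMAT3 and SESN1, and AEN fell. Over all 14436 genes tested 20.7% were called, 10.1% higher and 10.6% lower, and for the members the shares were 34.5%, 31.0% and 3.45%. The members were chosen with earlier results of these data known, so these shares are only a description. The median log2 fold change was 0.05 over the 29 members and 0.0028 over all genes tested. KO and SCR1 libraries did not overlap for 10 of the 29 members (34.5%), against 20.3% of all genes tested. The 19 members that were not called had log2 fold changes from -0.38 to 0.17. Without SCR1 replicate 1 the count was 6, all higher (20.7%, against 10.2% of all genes in that fit). On the TPM scale 6 were called with limma (20.7% against 8.59% with log2(TPM + 1)) and 5 without a filter (16.7% against 2.38%). These calls lay among BTG2, FBXW7, TNFRSF10B, TP53INP1, ZMAT3 and SESN1.

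**Figure D2:**
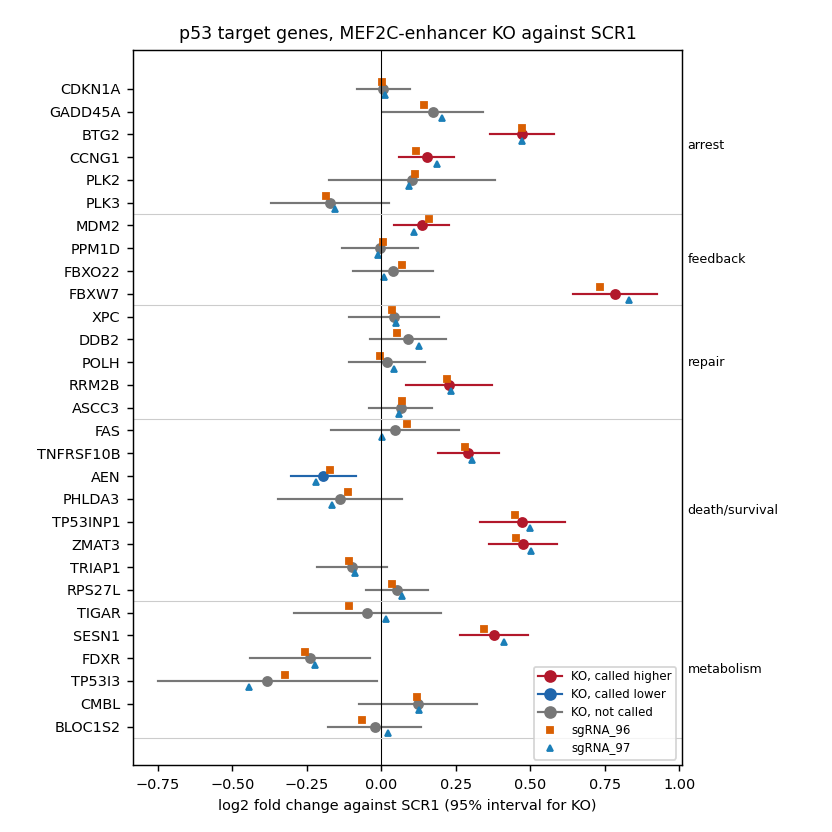
Log2 fold change against SCR1 of 29 p53 target genes by role, where circles with 95% intervals give the 6 KO libraries together, small squares sgRNA_96 and small triangles sgRNA_97. Called higher are 9 genes, FBXW7 furthest at 0.78, AEN is called lower at -0.19, and CDKN1A lies at 0.01.

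The arrest genes moved unequally, with BTG2 and CCNG1 called higher and the other 4 not called. BTG2 (chr1:203305491-203309602, plus strand) encodes an antiproliferative cofactor of mRNA deadenylation. It measured 59.5, 60.1 and 54.4 CPM in SCR1 replicates 1, 3 and 4, 82.8, 79.8 and 78.7 CPM with sgRNA_96, and 84.8, 78.0 and 78.8 CPM with sgRNA_97. Every KO library lay above every SCR1 library. The rise was 1.39-fold (log2 fold change 0.47, SE 0.05, edgeR adjusted p = 1.14e-05), and it held for each guide alone.

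CCNG1 (chr5:163437569-163446151, plus strand) encodes cyclin G1, which recruits a phosphatase to MDM2. Its levels were 215, 223 and 219 CPM in SCR1, 227, 245 and 239 CPM with sgRNA_96, and 257, 250.1 and 241 CPM with sgRNA_97. The groups did not overlap, with sgRNA_96 replicate 1 nearest to the controls. The log2 fold change was 0.15 (SE 0.04, edgeR adjusted p = 0.0203). With sgRNA_97 alone it was 0.19 (adjusted p = 0.0187, edgeR) and with sgRNA_96 alone 0.12 (adjusted p = 0.143, edgeR). The call was lost without SCR1 replicate 1 (adjusted p = 0.107, edgeR), without SCR1 replicate 4 (adjusted p = 0.0732, edgeR), with the gene length offset, with the GC trend taken out (log2 fold change 0.08) and on the TPM scale.

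CDKN1A, which encodes the cyclin-dependent kinase inhibitor p21, is the arrest target best known to follow p53. It lay between 329.5 and 350.0 CPM in SCR1 and between 321 and 356 CPM in the KO libraries, so the KO range enclosed the control range. Its log2 fold change was 0.01 with a 95% interval of -0.08 to 0.10 (edgeR adjusted p = 0.928). An antisense gene, DINOL, overlaps it, and since use of strand in counting is not given in the sources used here, reads of the pair cannot be told apart. GADD45A, a stress sensor that restrains the cell cycle, measured 24.9 CPM ± 2.17 (SD, n = 3) in SCR1 against 27.98 ± 2.19 (n = 6) in KO, and its log2 fold change was 0.17 (edgeR adjusted p = 0.133). The stress kinases PLK2 and PLK3 were at 6.14 and 13.2 CPM in SCR1, with log2 fold changes of 0.10 and -0.17 that were not called.

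**Figure D3:**
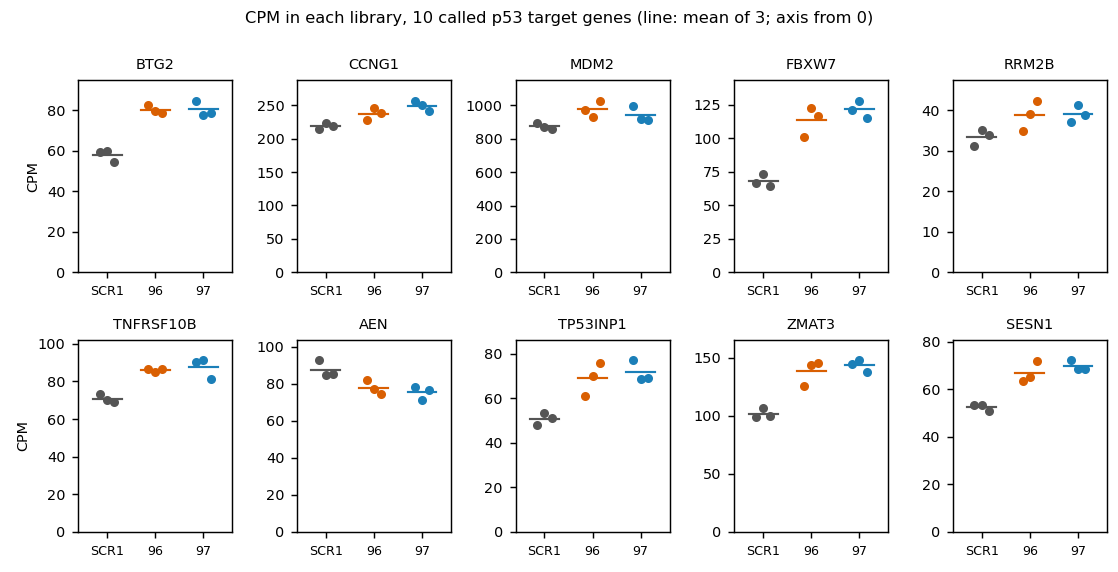
CPM in each library, with the axis from 0, of the 10 p53 target genes called in the KO libraries, where dots are single libraries in the order replicate 1, 3 and 4 and lines are the means of 3. FBXW7 rises from a mean of 68.3 to 117 CPM, RRM2B overlaps between groups, and AEN lies lower with both guides.

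Of the feedback genes FBXW7 and MDM2 rose. FBXW7 (chr4:152320544-152536092, minus strand) encodes the substrate receptor of a ubiquitin ligase that removes cyclin E, MYC and NOTCH1. It measured 66.9, 73.3 and 64.6 CPM in SCR1, 101, 123 and 117 CPM with sgRNA_96, and 121, 128 and 115 CPM with sgRNA_97. Even the lowest KO library, sgRNA_96 replicate 1, lay well above the highest control. The rise was 1.72-fold (log2 fold change 0.78, SE 0.07, edgeR adjusted p = 1.49e-06), the largest among the 29 tested members. The log2 fold change was 0.73 with sgRNA_96 (adjusted p = 2.42e-05, edgeR) and 0.83 with sgRNA_97 (adjusted p = 6.69e-06, edgeR).

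FBXW7 has several annotated starts, which give protein isoforms that differ in their first part. Counts of its transcripts were added up for starts within 500 bases of each other, which left 3 start clusters with at least 10% of the counts. The cluster at chr4:152352826 of the minus strand, led by transcript ENST00000393956.9, lies 183 kb downstream of the most upstream start. It carried 41.1, 51.2 and 37.7 CPM in SCR1, 77.1, 90.0 and 85.5 CPM with sgRNA_96, and 88.1, 97.5 and 87.1 CPM with sgRNA_97. Its mean went from 43.3 CPM ± 7.02 (SD, n = 3) to 87.6 ± 6.62 (n = 6), while the most upstream start had 11.9 ± 2.28 and 9.84 ± 2.11 CPM and the middle start 8.78 ± 0.663 and 11.5 ± 2.06 CPM. The downstream cluster held 58.3% to 69.8% of these counts in SCR1 and 72.7% to 76.6% in KO, without overlap.

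This share differed by 11.4 percentage points between the groups, with an exact two-sided permutation p of 0.0119, the smallest that the 84 arrangements allow. Adjusted over the 6 members with more than 1 start cluster the p was 0.0714, so the difference did not pass. Nor did it pass with starts within 100 bases (0.143) or with shares of TPM (0.262). With 84 arrangements no member could pass alone in any of these settings, so the adjusted p cannot decide the question. In the other 5, PLK3, DDB2, TNFRSF10B, RPS27L and TIGAR, the share differed by -2.05 to 3.80 percentage points (exact permutation p of 0.560 or more). Salmon assigns reads through whole transcript models, so these shares rest on that assignment.

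**Figure D4:**
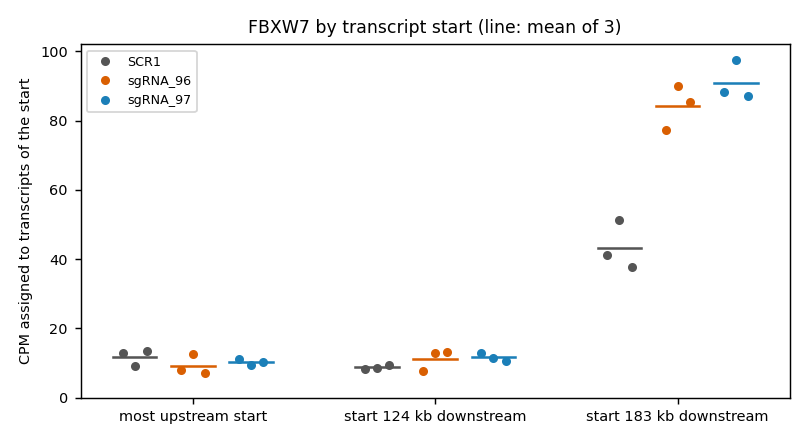
CPM assigned to the transcripts of each of the 3 FBXW7 start clusters, ordered from the most upstream start, where dots are single libraries and lines are the means of 3. The downstream start 183 kb away lies between 77.1 and 97.5 CPM in the KO libraries and between 37.7 and 51.2 CPM in SCR1, while the other starts overlap.

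MDM2 (chr12:68808177-68845544, plus strand), the ligase that marks p53 for degradation and is itself switched on by p53, changed little. Its levels were 893, 868 and 859 CPM in SCR1, 972, 927 and 1027 CPM with sgRNA_96, and 997, 921 and 911 CPM with sgRNA_97. The lowest KO library exceeded the highest control by less than the range of the controls. The log2 fold change was 0.14 (SE 0.04, edgeR adjusted p = 0.035), and neither guide alone passed (adjusted p = 0.0536 for sgRNA_96 and 0.155 for sgRNA_97, edgeR). Its call held in 7 of 19 alternatives and was lost without any 1 SCR1 library (edgeR adjusted p = 0.0745, 0.105 and 0.14 without replicates 1, 3 and 4), without sgRNA_96 replicate 4 (0.0544) and without sgRNA_97 replicate 1 (0.0623). With the GC trend taken out its log2 fold change was 0.07 (edgeR adjusted p = 0.265). The carboxypeptidase M gene overlaps MDM2 on the opposite strand, and so do antisense or other genes for FBXW7, TNFRSF10B, TP53INP1 and SESN1. PPM1D, a phosphatase that turns p53 signaling off, and FBXO22, a subunit of a ubiquitin ligase that acts on p53, were at 47.0 and 46.1 CPM in SCR1, with log2 fold changes of -0.0032 and 0.04.

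Among the 5 repair genes only RRM2B was called. RRM2B (chr8:102204502-102238961, minus strand), the p53-inducible subunit of ribonucleotide reductase, supplies deoxynucleotides for repair. It measured 31.2, 35.1 and 33.9 CPM in SCR1, 34.9, 39.1 and 42.4 CPM with sgRNA_96, and 37.1, 41.4 and 38.8 CPM with sgRNA_97. The groups overlapped, since sgRNA_96 replicate 1 lay below SCR1 replicate 3. The log2 fold change was 0.23 (SE 0.07, edgeR adjusted p = 0.027), with 0.22 for sgRNA_96 (adjusted p = 0.0931, edgeR) and 0.23 for sgRNA_97 (adjusted p = 0.0693, edgeR). The call was lost without SCR1 replicate 1 (edgeR adjusted p = 0.175), SCR1 replicate 4 (0.0695), sgRNA_96 replicate 4 (0.0504) or sgRNA_97 replicate 3 (0.0527). It held in 9 of 19 alternatives, and with the gene length offset the adjusted p was 0.488 (edgeR) and on the TPM scale 0.564 to 0.713 (limma), where the log2 fold change was 0.14 to 0.15.

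The remaining repair genes had log2 fold changes between 0.02 and 0.09 and were not called. DDB2, which recognises ultraviolet lesions, measured 69.1 CPM ± 3.10 (SD, n = 3) in SCR1 against 73.5 ± 5.12 (n = 6) in KO. XPC, its partner in nucleotide excision repair, was at 28.04 and 28.9 CPM. POLH, the polymerase that copies past ultraviolet lesions, was at 107 and 109 CPM, and ASCC3, a helicase of alkylation repair and ribosome rescue, at 102 and 107 CPM. With either guide 0 repair genes passed edgeR and DESeq2 alike, and 1, RRM2B, had an unadjusted p under 0.05 with each guide.

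The death and survival group split, with 3 genes higher, 1 lower and 4 not called among 8 tested. TNFRSF10B (chr8:23020133-23069031, minus strand) encodes the TRAIL death receptor DR5. It measured 73.3, 70.2 and 69.1 CPM in SCR1, 86.7, 85.2 and 86.4 CPM with sgRNA_96, and 90.3, 91.3 and 81.2 CPM with sgRNA_97. All KO libraries lay above all controls, sgRNA_97 replicate 4 being the lowest. The rise was 1.22-fold (log2 fold change 0.29, SE 0.05, edgeR adjusted p = 0.000628).

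TP53INP1 (chr8:94925972-94949378, minus strand) encodes a nuclear stress protein that promotes p53 phosphorylation and autophagy. Its levels were 48.0, 53.4 and 51.2 CPM in SCR1, 61.3, 70.2 and 76.0 CPM with sgRNA_96, and 77.2, 69.0 and 69.1 CPM with sgRNA_97. The groups did not overlap, and the rise on the log2 scale was 0.47 (SE 0.07, edgeR adjusted p = 0.000156).

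ZMAT3 (chr3:178960121-179072215, minus strand) encodes an RNA-binding protein that regulates splicing and mRNA stability downstream of p53. It measured 98.7, 106 and 99.4 CPM in SCR1, 126, 144 and 146 CPM with sgRNA_96, and 144, 148 and 138 CPM with sgRNA_97. The groups were again apart, with sgRNA_96 replicate 1 the lowest KO library. The rise was 1.39-fold (log2 fold change 0.48, SE 0.05, edgeR adjusted p = 1.82e-05).

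AEN (chr15:88621337-88632281, plus strand), a nuclease that cuts DNA in apoptosis, was the only member called lower. Its levels were 92.7, 85.0 and 85.1 CPM in SCR1, 82.3, 77.0 and 74.4 CPM with sgRNA_96, and 78.2, 71.3 and 76.9 CPM with sgRNA_97. All 6 KO libraries lay below all 3 controls, and SCR1 replicate 1 was the highest. The log2 fold change was -0.19 (SE 0.05, edgeR adjusted p = 0.0145). It passed with sgRNA_97 (adjusted p = 0.029, edgeR) and not with sgRNA_96 (adjusted p = 0.0874, edgeR), and the call was lost without SCR1 replicate 1 (adjusted p = 0.117, edgeR) and on the TPM scale.

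The other death and survival genes were not called. FAS, the receptor of the death ligand FASLG, measured 9.69 CPM ± 0.294 (SD, n = 3) in SCR1 against 10.0 ± 0.907 (n = 6) in KO. PHLDA3, which restrains AKT at the membrane, and TRIAP1, a mitochondrial lipid transfer factor that favors survival, had log2 fold changes of -0.14 and -0.10. RPS27L, a ribosomal protein paralog, had 88.1 and 91.5 CPM, and its reads could be shared with its close paralog RPS27.

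In the metabolic group SESN1 rose and the other 5 genes were not called. SESN1 (chr6:108984309-109094846, minus strand) encodes sestrin 1, which senses amino acids and restrains mTORC1. It measured 53.3, 53.4 and 50.7 CPM in SCR1, 63.2, 65.0 and 71.8 CPM with sgRNA_96, and 72.1, 68.6 and 68.7 CPM with sgRNA_97. All KO libraries exceeded all controls, with a log2 fold change of 0.38 (SE 0.05, edgeR adjusted p = 0.000163).

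FDXR, the mitochondrial ferredoxin reductase, had 16.8 to 18.1 CPM in SCR1 and 12.2 to 16.4 CPM in KO. Its groups did not overlap, yet its log2 fold change of -0.24 (SE 0.10) did not pass (edgeR adjusted p = 0.0894). TP53I3, a quinone oxidoreductase, was the least abundant tested member by CPM, at 3.75 ± 0.373 (SD, n = 3) and 2.88 ± 0.372 (n = 6), and its log2 fold change of -0.38 had a 95% interval of -0.75 to -0.02 (edgeR adjusted p = 0.133). TIGAR, which lowers glycolysis, CMBL, a hydrolase, and BLOC1S2, a subunit of lysosomal positioning complexes, had log2 fold changes of -0.05, 0.12 and -0.02.

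Both guides gave the same 6 called rises, in BTG2, FBXW7, TNFRSF10B, TP53INP1, ZMAT3 and SESN1. With sgRNA_96 these were the only members called, 6 of 29 (20.7%), where 11.2% of all genes tested were called, 5.78% higher and 5.41% lower. With sgRNA_97 CCNG1 and AEN were added, making 8 of 29 (27.6%), where 15.1% of all genes tested were called, 7.35% higher and 7.76% lower. The 2 comparisons share their 3 control libraries, so they are not independent of each other. Set directly against each other, sgRNA_97 and sgRNA_96 gave 0 called members in edgeR and in DESeq2, 0 with an unadjusted p under 0.05, and differences of at most 0.12 on the log2 scale (over all genes tested 0.0208% were called).

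By median the risers had longer transcripts and a lower GC content than the other members, with overlapping ranges. Lengths ran from 1964 to 8151 bases for the risers and from 693 to 6132 bases for the others. GC content ran from 36.7% to 50.8% for the risers and from 38.8% to 63.3% for the others. The difference was not tested. The 9 risers had a median transcript length of 3391 bases and a median GC content of 39.8%, against 2064 bases and 47.4% for the other 20 tested members and 2224 bases and 48.8% for all genes tested. With the trend of fold change on GC content taken out, an alternative chosen after seeing the data, 7 members were called, 6 higher and 1 lower, and CCNG1, MDM2 and RRM2B were lost. The members' share was then 24.1%, beside 25.1% of all genes, so the excess over all genes in the share called was gone, while 20.7% of members and 12.2% of all genes were called higher. With the trend on length taken out, also chosen after seeing the data, 8 members were called, 7 higher and 1 lower (27.6%, against 18.6% of all genes), and with a gene length offset 7, 6 higher and 1 lower (24.1% against 10.8%). MDM2 and RRM2B were lost in both. The library sgRNA_96 replicate 1 was the lowest KO library for 6 of the 9 risers and for 36.1% of the 1458 genes called higher. Without it 10 members were called (34.5%), while the share of all genes called was 24.7% in that fit and 20.7% in the main fit.

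The regulators of p53 were listed separately, 24 genes of which 22 had enough counts. In KO 6 were called (27.3%, against 20.7% of all genes tested), 3 higher and 3 lower, with a median log2 fold change of 0.03. MDM4, the MDM2 relative that holds p53 inactive, measured 118, 136 and 127 CPM in SCR1, 160.4, 195 and 182 CPM with sgRNA_96, and 174, 206 and 174 CPM with sgRNA_97. It rose 1.44-fold (log2 fold change 0.52, SE 0.07, edgeR adjusted p = 8.35e-05).

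ATM, the kinase that signals DNA breaks to p53, rose from 161 CPM ± 5.90 (n = 3) to 215 ± 10.6 (n = 6), a log2 fold change of 0.42 (edgeR adjusted p = 2.65e-05). TP73, a p53 relative that binds the same elements, fell from 24.5 to 17.9 CPM (log2 fold change -0.45, edgeR adjusted p = 0.00317). KAT5, an acetyltransferase that acts on p53 and ATM, fell from 48.8 to 39.5 CPM (log2 fold change -0.31, edgeR adjusted p = 0.0112). MDM4 and ATM were called in all 19 alternatives run, TP73 in 16 and KAT5 in 14. With log2(TPM + 1) and no filter 2 regulators were called higher and 0 lower, where 2.38% of all genes were called. TP63 had at most 1 count in a library, and CDKN2A, which encodes the MDM2 inhibitor ARF, had 0 counts in all 9.

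A wider list of 51 other p53 targets did not lean one way. Of its 46 tested genes 5 were called higher and 5 lower (21.7%, against 20.7% of all genes tested), with a median log2 fold change of -0.02. ANKRA2 (log2 fold change 0.45), the diacylglycerol kinase DGKA (0.45) and REV3L (0.36), the catalytic subunit of a translesion polymerase, rose. The groups overlapped for ANKRA2 (lowest KO 9.58, highest SCR1 9.81 CPM), and it was not called with sgRNA_96 (edgeR adjusted p = 0.15). DGKA and REV3L did not overlap and were called with each guide. ATF3, a stress transcription factor, fell by 0.49 on the log2 scale. With log2(TPM + 1) and no filter 1 gene was called higher and 0 lower, where 2.38% of all genes were called. With the GC trend taken out, chosen after seeing the data, the counts were 6 and 9, where 25.1% of all genes were called.

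The cell cycle genes known to be lowered through p21 and DREAM moved downward, while CDKN1A, which encodes p21, was not called (log2 fold change 0.01). Of 22 genes tested 16 were called lower (72.7%, against 10.6% of all genes in edgeR) and 0 higher by edgeR and by DESeq2. At an unadjusted edgeR p under 0.05, 18 were lower and 0 higher. Of all 14436 genes tested, 4834 reached that threshold in either direction. This list was chosen with earlier results of these data known, so its share beside all genes is only a description. The median log2 fold change was -0.21. MYBL2, a transcription factor of the S and G2 phases, went from 376 CPM ± 29.3 (SD, n = 3) to 265 ± 19.9 (n = 6), a log2 fold change of -0.51 (edgeR adjusted p = 3.3e-05). The replication helicase subunits MCM2 and MCM5 fell by 0.41 and 0.38 on the log2 scale, and RRM2, the S phase subunit of ribonucleotide reductase, by 0.39. Over the leave-outs and other alternatives the number called lower ranged from 6 to 20, and 0 were called higher. The 6 came with log2(TPM + 1) and no filter, where 2.38% of all genes were called in either direction. The 20 came with the GC trend taken out, chosen after seeing the data, where 25.1% of all genes were called. Whether p53, p21 and DREAM or another route lowered these genes was not tested. The paper reports lower expression of E2F and MYC targets after the enhancer KO.

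**Figure D5:**
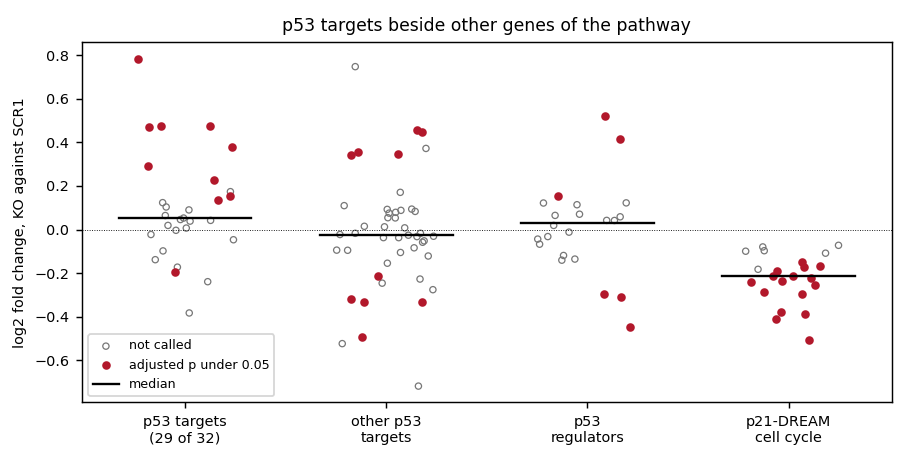
Log2 fold change of KO against SCR1 for the tested genes of the 4 lists, where filled dots are called genes, open dots are not called and lines are medians. The p53 targets described here have a median of 0.05, the other p53 targets -0.02, the p53 regulators 0.03 and the cell cycle genes -0.21.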

How the data were processed

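The submitters' processing notes name STAR, Salmon 1.10.1 and GRCh38. The authors deposited estimated counts (expected counts, not normalized) and TPM per transcript from Salmon. All 252835 transcripts matched GENCODE release 44, and 87.8% of nonzero deposited counts held a fraction. Counts were summed per gene and rounded. Genes were kept by filterByExpr (minimum count 10), sizes were scaled by TMM, and CPM uses the scaled sizes. R 4.3.3 and edgeR 4.0.16 gave quasi-likelihood tests, adjusted by Benjamini-Hochberg over 14436 genes, with a threshold of 0.05. KO against SCR1 was a fit of 2 classes, and the guides were a fit of 3 groups. Alternatives used DESeq2 1.42.0 and limma 3.58.1 on log2(TPM + 1) and log2(TPM + 0.1). The code was tested on simulated counts. Totals of 15212462 to 29777361 counts set the precision. Groups came from the sample titles, and whether replicate numbers pair libraries was checked.

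Named were all 32 members, with every library's value for those called, at most the 4 called genes of each further list with the largest change and a mean of at least 1 CPM, and MEF2C. A further gene of the rule is not reported here. The members and lists were chosen with earlier results of these data known. Reads of near-identical or overlapping genes were divided by Salmon. Cell markers named as such were a check of the cell type.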

Additional observations from a re-analysis of the deposited data

Results flagged for a closer look

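One result stood out among the 29 members checked for a library apart from the other KO libraries. FBXO22 measured 52.6 CPM with sgRNA_96 replicate 4, while the lowest and highest of the other 5 were 45.3 and 46.7 CPM. Chance marks about 1 in 20 such groups, and 1.45 of 29 would be marked by it. FBXO22 was not called in any comparison with SCR1. The direct comparison of the guides gave no member that differed.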

How the results depend on the processing

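The rises of BTG2, FBXW7, TNFRSF10B, TP53INP1, ZMAT3 and SESN1 were called in at least 18 of 19 alternatives of the KO comparison. With limma the members called in KO were 6 on log2(TPM + 1), 6 on log2(TPM + 0.1) and 5 without a filter, while 8.59%, 8.63% and 2.38% of all genes were called. For sgRNA_96 they were 3, 3 and 2 (of all genes 3.1% on log2(TPM + 1) and 0.741% without a filter), and for sgRNA_97 3 without a filter (1.14%). Leaving out 1 library gave 6 to 10 members in KO, where 10.2% to 24.7% of all genes were called. The 6 came without SCR1 replicate 1 (10.2% of all genes). For sgRNA_96 there were 6 to 8 members (5.25% to 14.1% of all genes) and for sgRNA_97 6 to 9 (6.7% to 17.4%). Between the guides there were 0 (at most 0.0348% of all genes). With a replicate block 10 members were called in KO (34.5%, against 20.3% of all genes). Same-numbered libraries correlated at -0.0847 to 0.0647 and others at -0.0697 to 0.115, so a shared number went with no higher correlation. With 3 libraries a group these correlations cannot show whether same-numbered libraries shared a culture or batch.

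No called member reversed. Among uncalled members the log2 fold change became with the gene length offset and with limma (+ 1, + 0.1, no filter) -0.073, -0.0664, -0.0828 and -0.0664 for PLK2, 0.0465, 0.0488, 0.0505 and 0.0488 for PPM1D, -0.0344, -0.0205, -0.0209 and -0.0205 for FBXO22, -0.0326, -0.0128, -0.0135 and -0.0128 for XPC, and 0.0091, 0.0157, 0.016 and 0.0157 for BLOC1S2. It became 0.0041 for TIGAR with the gene length offset and -0.0027 for CDKN1A without a filter. With the length trend it became -0.0529 for POLH, -0.0054 for ASCC3 and 0.0027 for BLOC1S2, and with the GC trend -0.0086 for FAS and -0.007 for RPS27L. Leaving out 1 library gave log2 fold changes on both sides of 0 for uncalled members, -0.0148 to 0.0269 for CDKN1A, -0.0269 to 0.0223 for PPM1D, -0.024 to 0.0891 for FBXO22, -0.0296 to 0.0898 for XPC, -0.0201 to 0.0517 for POLH, -0.0971 to 0.037 for TIGAR and -0.0645 to 0.0202 for BLOC1S2. Both trends were chosen after seeing the data. The cause was not tested. The difference in start share was 9.03 to 14.8 points for FBXW7 over the leave-outs, -3.52 to 1.08 for DDB2, -6.57 to 2.12 for PLK3, 0.353 to 1.88 for RPS27L, -0.504 to 5.98 for TIGAR and -4.63 to 0.81 for TNFRSF10B, and -1.12 for RPS27L on TPM shares.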
